A study of Mus musculus with 18 samples.

Results

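H3K9me3, the trimethylated form of lysine 9 on histone H3 that marks silent chromatin, was examined over the imprinted cluster of distal mouse chromosome 7. The 8 genes H19, Igf2, Ins2, Ascl2, Kcnq1, Kcnq1ot1, Cdkn1c and Phlda2 were taken by name from the deposited annotation, which holds 35855 usable genes, and every peak between 50 kb before H19 and 50 kb after Phlda2 was assigned to the genes it touched. This window spans chr7:142525530-143553145 of mm10, 1028 kb, and holds 27 annotated genes in all. The cells were E14TG2a, an established male embryonic stem cell line grown with serum and LIF. Peak lists were analysed for wild-type cells, for Uhrf1 KO cells and for Dhx9 KO cells, with 2 libraries each, all made with the same antibody. The Uhrf1 KO cells were CRISPR-Cas9 clonal lines, made in cells with an eGFP reporter with tet operators and a TetR-KRAB repressor. The wild-type cells carry the reporter as well. Doxycycline releases the repressor from the operators, and whether the drug was present for these libraries is not given in the sources used here. How the Dhx9 KO cells were made is not given either. The 2 libraries of a genotype are described as biological replicates. Whether they came from separate clones or cultures is not given, so the p-values measure only the spread between these libraries. The line comes from an inbred strain and the lists do not separate the parental chromosomes.

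Imprinted genes are expressed from a single parental chromosome, and in this cluster the choice depends on control regions whose DNA is methylated on the chromosome from a single parent. The control region upstream of H19 is methylated on the paternal chromosome and, when unmethylated, is bound by the insulator protein CTCF. The other lies at the start of Kcnq1ot1, a long non-coding RNA that silences its neighbours, and is methylated on the maternal chromosome. At methylated control regions the zinc finger protein ZFP57 binds the hexamer TGCCGC and recruits the enzymes that deposit H3K9me3. UHRF1 brings the maintenance DNA methyltransferase DNMT1 to newly replicated DNA, and DHX9 is a helicase that unwinds RNA and DNA structures.

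The sequences of the places on which the results turn are shown first, each read from the GRCm38 reference on the minus strand, the strand of H19, Igf2 and Kcnq1ot1, 5′ to 3′. Capitals mark TGCCGC and GGNGGCAG, the latter a core of the CTCF motif, on either strand; the letters of both can overlap, as they do once in the first stretch. Each stretch is the 300 bases of its place with the most matches, so its matches are a description of a chosen window. Matches of TGCCGC were ranked first at H19 and Kcnq1ot1, and matches of GGNGGCAG first at Igf2.
H19 upstream, chr7:142581761-142582060: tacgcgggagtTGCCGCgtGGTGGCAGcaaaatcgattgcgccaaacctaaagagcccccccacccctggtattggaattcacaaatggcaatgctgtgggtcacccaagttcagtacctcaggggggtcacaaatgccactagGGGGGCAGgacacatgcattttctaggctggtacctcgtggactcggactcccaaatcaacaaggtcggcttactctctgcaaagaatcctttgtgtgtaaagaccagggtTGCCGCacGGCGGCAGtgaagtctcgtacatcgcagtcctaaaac
Kcnq1ot1 start, chr7:143295561-143295860: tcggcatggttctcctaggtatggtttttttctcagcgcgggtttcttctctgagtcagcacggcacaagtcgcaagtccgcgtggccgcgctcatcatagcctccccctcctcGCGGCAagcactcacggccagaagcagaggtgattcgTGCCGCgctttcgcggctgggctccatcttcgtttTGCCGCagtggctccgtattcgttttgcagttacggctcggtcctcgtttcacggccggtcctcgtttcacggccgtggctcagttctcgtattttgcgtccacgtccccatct
Igf2 upstream, chr7:142667631-142667930: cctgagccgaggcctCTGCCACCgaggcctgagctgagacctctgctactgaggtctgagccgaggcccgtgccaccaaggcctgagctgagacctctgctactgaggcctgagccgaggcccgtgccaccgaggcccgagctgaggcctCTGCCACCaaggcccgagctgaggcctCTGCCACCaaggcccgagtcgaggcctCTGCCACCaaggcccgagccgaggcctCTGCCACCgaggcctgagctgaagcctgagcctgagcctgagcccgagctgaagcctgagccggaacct
The H19 stretch lies between genes, 3615 to 3914 bp upstream of the H19 start site, and holds 3 TGCCGC, 3 GGNGGCAG and 14 CpG. The Kcnq1ot1 stretch lies in the transcribed part of Kcnq1ot1, 687 to 986 bp after its start, within an intron of Kcnq1, and holds 3 TGCCGC, no GGNGGCAG and 32 CpG. The Igf2 stretch lies 815 to 1114 bp upstream of the Igf2 start site in an exon of the antisense RNA Igf2os and holds 5 GGNGGCAG within a tandem repeat, no TGCCGC and 16 CpG. Among 32851 RefSeq promoters of 300 bases on GRCm38.p6, 11.6% hold at least 1 TGCCGC and 0.234% at least 3, while 12.6% hold at least 1 GGNGGCAG, 0.152% at least 3 and 0.0122% at least 5. Each promoter is a fixed window, while the printed stretches were chosen for their matches. The promoter shares therefore do not measure how unusual the stretches are. Along the whole of chromosome 7, TGCCGC occurs 0.0697 times and GGNGGCAG 0.278 times per kb. In the 5 kb upstream of H19 each occurs 1.2 times per kb, 6 matches of each. The whole Igf2 upstream peak of 5.8 kb holds 1 TGCCGC (0.172 per kb) and 7 GGNGGCAG (1.21 per kb).

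The lists give, for each peak, the reads of the ChIP, those of the background and the log2 of their depth-scaled ratio, called the log2 fold here. Reads in peaks totalled 16966576 to 20875020 in 5 libraries and 6703081 in Uhrf1 KO replicate 1, which stands apart. Its ChIP library size, derived from the lists relative to wild-type replicate 1, was 0.439, against 0.830 to 1.116 in the others. Uhrf1 KO replicate 1 is called shallow below on these values. A place without a peak has no read count in the lists, so its reads are unknown rather than 0. The gene-level tests below enter it as 0, so their log2 changes also reflect whether a peak was called. The smallest peak of a list held 14 reads in Uhrf1 KO replicate 1 and 25 to 27 in the others. The Uhrf1 KO lists were also called against other background reads than the wild-type and Dhx9 KO lists, which share theirs, so in comparisons with Uhrf1 KO the genotype cannot be told apart from the background used. As a check of the cell label, 6 genes expressed in embryonic stem cells were looked up. Of these, Pou5f1, Sox2, Zfp42 and Klf4 had no peak within 1 kb of their start in any library. The others went the other way: Nanog had one in 3 libraries and Esrrb in 5. The share of all genes without such a peak was not counted, so the check does not settle the label.

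In wild-type cells H3K9me3 covered more than 50% of the cluster. Peaks numbered 77 and 73 in the wild-type libraries and covered 557.2 and 544.2 kb, 54.2% and 52.9% of the window, against 15.3% and 14.7% of the genome. In Dhx9 KO, 77 and 72 peaks covered 534.0 and 463.2 kb. In Uhrf1 KO, 45 and 58 peaks covered 161.4 and 324.2 kb. The called length was thus shorter in both Uhrf1 KO libraries than in any other library, and shortest in the shallow replicate 1. At the 8 genes, with 5 kb on each side, lay 40 and 39 of the window's peaks in wild-type, 29 and 30 in Uhrf1 KO and 40 and 39 in Dhx9 KO.

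**Figure D1:**
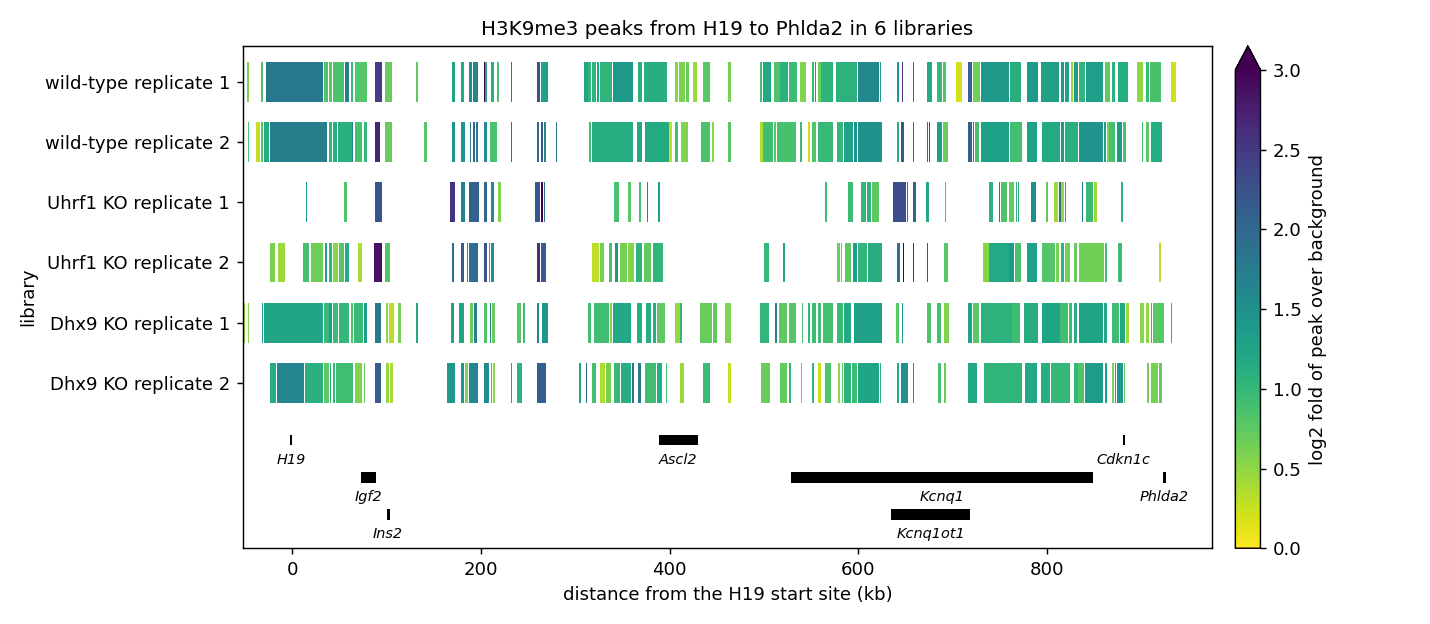
Peaks of the 6 libraries (rows) along the cluster, by distance from the H19 start site in kb; colour gives each peak's log2 fold over background, with 3 and above in the darkest shade, and black bars are the genes. The wide block at H19 and the peak at the Kcnq1ot1 start appear in the wild-type and Dhx9 KO rows and not in the Uhrf1 KO rows, while the dark peak beside Igf2 appears in all 6.

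Position by position, 2413 bins of 200 bp carried a peak in both wild-type libraries. Of these, 890 (36.9%) were without a peak in both libraries of Uhrf1 KO, where over the genome the share was 29.8% of 1508810 bins. By the deeper Uhrf1 KO replicate 2 alone, 38.7% of the bins were without a peak in the cluster and 31.5% over the genome; by replicate 1 alone, 73.7% and 63.9%. In Dhx9 KO, 132 bins (5.47%) had no peak in either library, against a genome share of 12.4%. New peaks were rare in the cluster: 8 bins were called in both libraries of Uhrf1 KO and in neither of wild-type, 1.28% of the bins shared by the Uhrf1 KO libraries (13.5% over the genome), and 77 in Dhx9 KO, 3.81% (11.5% over the genome). By Dhx9 KO replicate 1 alone, 10.4% of the wild-type bins were without a peak in the cluster and 24.1% over the genome; by replicate 2 alone, 18.9% and 28.9%. The shares are given as a description, and an exact two-sided permutation test of 2 libraries against 2 could not give a p below 0.333.

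The losses were uneven along the cluster. From Ascl2 up to Kcnq1, a stretch that holds Tspan32, Cd81 and Trpm5, 217 of 267 wild-type bins (81.3%) were lost from both libraries of Uhrf1 KO. From the H19 flank to Ins2 the share was 211 of 529 (39.9%), beyond Kcnq1 it was 108 of 211 (51.2%), in the body of Kcnq1 255 of 951 (26.8%), and between Ins2 and Ascl2 100 of 459 (21.8%). In Dhx9 KO the same 5 stretches had 17.98%, 2.27%, 6.64%, 4.42% and 3.49%. The stretch before Kcnq1 was thus the one with the highest share in either knockout. Its peaks in wild-type replicate 1 had log2 folds of 0.45 to 1.21, against 1.79 for the peak at H19. Their percentiles within that list ran from 6.70 to 60.5. Whether the strength of the wild-type peaks accounts for the share was not tested.

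**Figure D2:**
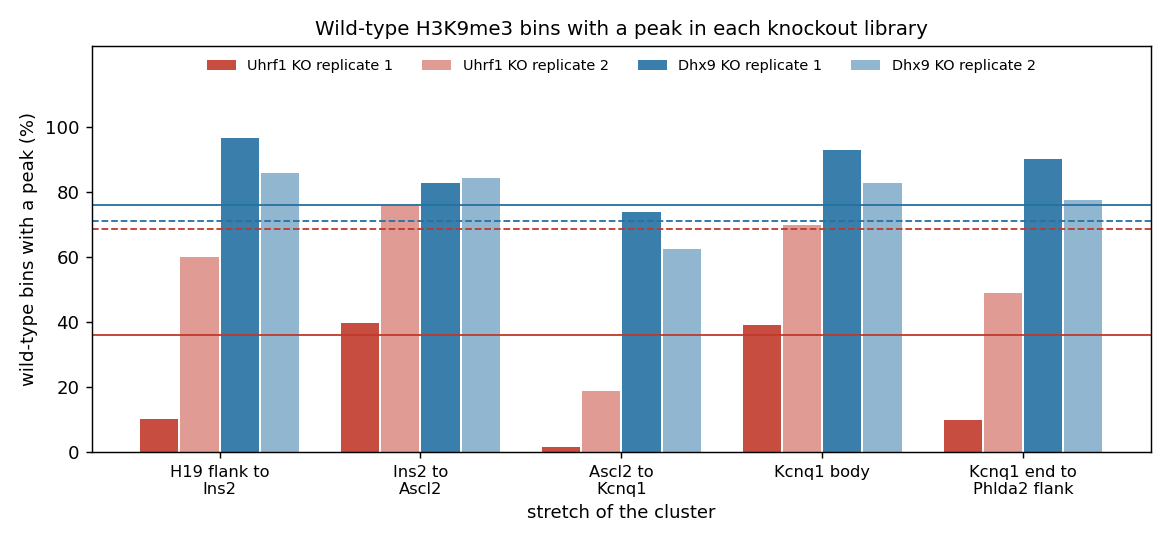
Share of the 200 bp bins with a peak in both wild-type libraries that also carried a peak in each knockout library (bars), in 5 stretches from H19 to Phlda2; solid (replicate 1) and dashed (replicate 2) lines give the same share over the genome. From Ascl2 to Kcnq1 the Uhrf1 KO bars stand at 1.498% and 18.7%.

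H19, a maternally expressed long non-coding RNA, lay on the minus strand at chr7:142575530-142578146 inside the widest peak of the wild-type cluster. That peak was 60.4 kb long in each wild-type library and held 4283 and 3899 ChIP reads, at log2 folds of 1.79 and 1.72. In Dhx9 KO replicate 1 the start of H19 lay in a peak of 62.2 kb with 3356 reads (log2 fold 1.24), and in replicate 2 in a peak of 28.6 kb with 2060 reads (1.64), next to separate peaks of 6.4 and 19.8 kb with 308 and 944 reads. In ChIP reads per kb the peak at the H19 start held 70.9 and 64.6 in wild-type and 54.0 and 72.0 in Dhx9 KO, values not scaled for depth. The log2 folds, which are, were lower in both Dhx9 KO libraries than in both wild-type libraries, and the test of the whole domain, given later, made no call (adjusted p = 0.510, edgeR). By log2 fold within its own list the peak stood at percentiles 83.2 and 80.3 in wild-type and 73.3 and 84.0 in Dhx9 KO, which overlap. In Uhrf1 KO no peak reached the H19 gene in either library.

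The longest run of lost wild-type bins in the cluster lay here, 18800 bp at chr7:142570601-142589400, from 11.3 kb upstream to 7.55 kb downstream of the H19 start site. It was covered in full by peaks in both wild-type and both Dhx9 KO libraries and not at all in either Uhrf1 KO library. The run holds the H19 gene, the microRNA gene Mir675 within it and the stretch with the CTCF and TGCCGC letters printed above, with 290 CpG (15.4 per kb against 8.64 along chromosome 7). In Uhrf1 KO replicate 2, peaks stood on both sides of the run: 6000 bp with 162 reads and 7800 bp with 223 reads downstream of H19, and 6200 bp with 180 reads and 13200 bp with 417 reads upstream. Their log2 folds, 0.46 to 0.88, were below those of the wild-type peak. Replicate 1 had 1 peak in the domain, of 2000 bp with 34 reads, 13.9 kb upstream of the H19 start.

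**Figure D3:**
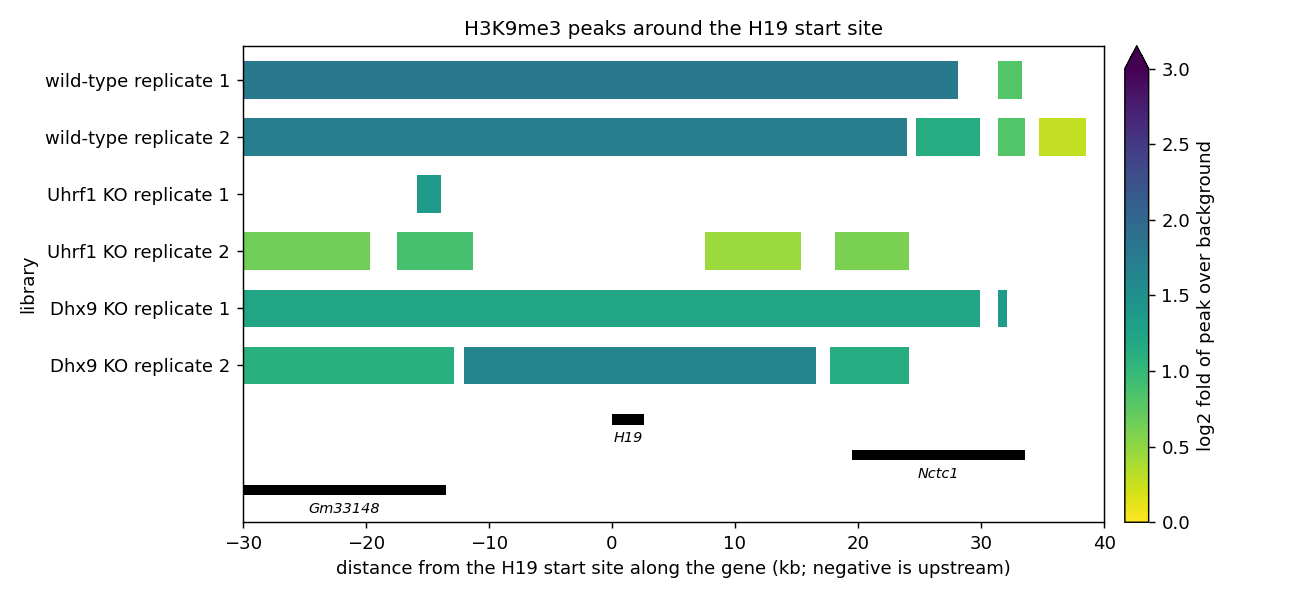
Peaks of the 6 libraries (rows) by distance in kb from the H19 start site along the gene, with upstream negative; colour gives the log2 fold over background and black bars the genes. The Uhrf1 KO rows are empty from 11.3 kb upstream to 7.55 kb downstream, where the other 4 rows are filled.

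Kcnq1ot1 (minus strand, chr7:143213111-143296547), transcribed against Kcnq1 from within it, started inside a short, strong wild-type peak. The peak spanned chr7:143294401-143298600 in both wild-type libraries and held 439 and 415 ChIP reads over 116 background reads in each, at log2 folds of 2.08 and 2.06. In reads per kb that was 104.5 and 98.8. Dhx9 KO replicate 1 had 265 reads over 4000 bp (66.3 per kb, log2 fold 1.27). Replicate 2 had 670 reads over 10000 bp (67.0 per kb, log2 fold 1.21), a longer peak that takes in the weaker flank. Ranked by log2 fold within its own list, the start peak stood at percentiles 89.2 and 88.1 in wild-type. In Dhx9 KO the percentiles were 75.0 and 63.7, which do not overlap with those of wild-type. How many of all peaks were lower in both Dhx9 KO libraries was not counted. Over the joint region, chr7:143294001-143307600, wild-type held 732 and 687 reads and Dhx9 KO 575 and 670, and the test with called length as offset made no call (log2 change −0.14 ± 0.14 SE, adjusted p = 0.803, edgeR; 0.231% of 29863 regions covered over at least 50% were lower). That region pools the start peak with its weaker flank, so the start peak alone was not tested. In Uhrf1 KO the start had no peak, and the nearest lay 20.3 kb away in replicate 1 and 13.7 kb away in replicate 2. The 4.2 kb hold 114 CpG, 27.1 per kb, and 3 of the TGCCGC hexamer.

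Strong wild-type signal was rarely lost elsewhere. Over the genome, 89951 bins lay under wild-type peaks with log2 folds of at least 2 in both libraries, and 2.83% of them were lost in Uhrf1 KO, that is, uncalled in both of its libraries. In Dhx9 KO that share was 4.43%. In the cluster 56 such bins fell into 3 places: the Kcnq1ot1 start with 21 bins, all of them lost in Uhrf1 KO, a 5800 bp place beside Igf2 and a 1200 bp place inside Kcnq1ot1. The latter 2 kept peaks in both Uhrf1 KO libraries, and all 3 kept peaks in Dhx9 KO. The threshold of 2 was chosen after the values were seen, and the 21 bins are 1 peak, not separate losses.

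Within the body of Kcnq1ot1 a strong peak was kept. At chr7:143224801-143226000, where 93.8% of the bases are soft-masked as repeats and which holds 10 CpG and no TGCCGC, the wild-type peaks held 177 and 225 reads at log2 folds of 2.58 and 2.20. Uhrf1 KO replicate 1 had a peak of 13400 bp with 464 reads over the same place, and replicate 2 a peak of 1000 bp with 198 reads (log2 fold 3.48). Dhx9 KO had 136 reads (1.39) and 416 reads over 7600 bp (1.48). Peaks over the whole gene and its flanks summed to 1854 and 1445 reads in wild-type cells, 677 and 615 in Uhrf1 KO and 1380 and 1456 in Dhx9 KO. The fitted log2 change of this sum in Uhrf1 KO was 0.08 ± 0.71 (SE; adjusted p = 0.957, edgeR). The sum mixes the lost start with the kept body. Its fitted change turned negative in 9 alternative settings of scaling, peaks and libraries and kept its sign in 6. Why it lies near 0 was not tested.

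**Figure D4:**
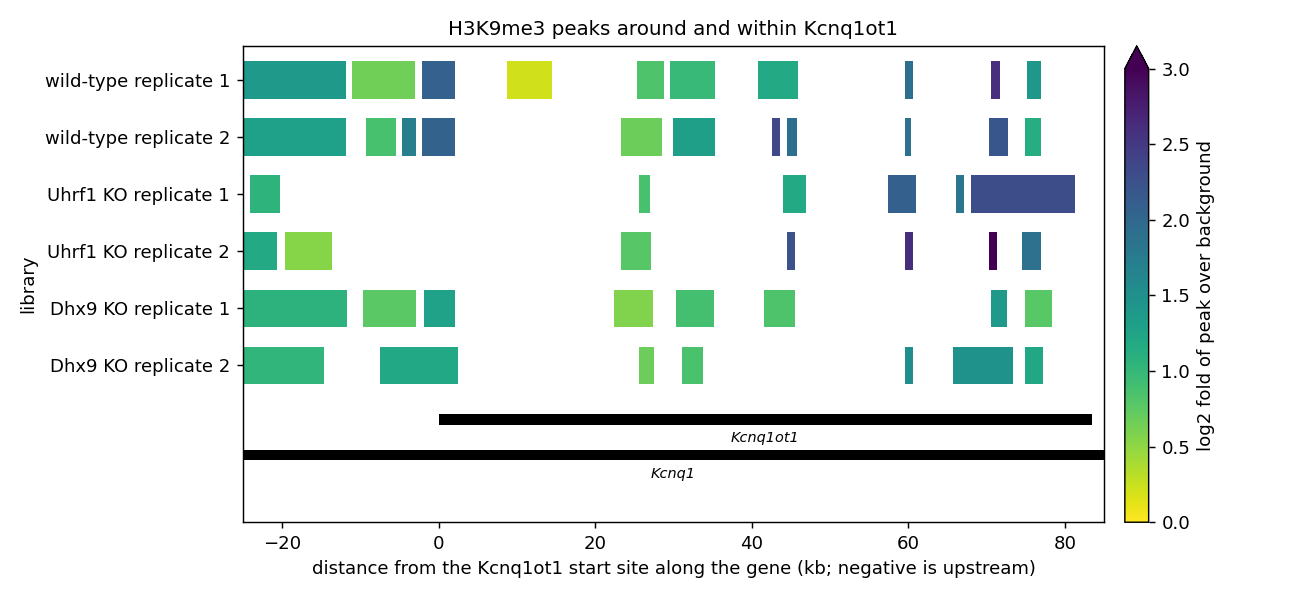
Peaks of the 6 libraries (rows) by distance in kb from the Kcnq1ot1 start site along the gene, with upstream negative; colour gives the log2 fold over background and black bars the genes. At the start the wild-type rows carry dark peaks, the Dhx9 KO rows lighter ones and the Uhrf1 KO rows none, while near 70 kb into the gene all rows carry a peak.

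Igf2, the paternally expressed insulin-like growth factor gene (minus strand, chr7:142650768-142666816), kept its peak. The peak over its start site and the region upstream, with the tandem repeat printed above, held 828 and 681 ChIP reads in the wild-type libraries, 318 and 933 in those of Uhrf1 KO and 485 and 671 in those of Dhx9 KO. Per kb these were 112 and 117, 43.0 and 117, and 75.8 and 95.9, and the log2 folds were 2.46 and 2.69, 2.22 and 2.86, and 1.80 and 2.13. By log2 fold within its own list the peak stood at percentiles 94.2 and 95.8 in wild-type and 92.8 and 94.3 in Dhx9 KO, which overlap. How many of all peaks were lower in both Dhx9 KO libraries was not counted. In reads and log2 folds the wild-type and Uhrf1 KO groups overlapped, with the low value in the shallow library. By either measure both Dhx9 KO libraries were below both wild-type libraries. Neither difference was called over the joint regions covered over at least 50%, tested with called length as offset. The log2 change was −0.38 ± 0.15 (SE, adjusted p = 0.169, edgeR) in Uhrf1 KO and −0.44 ± 0.14 (adjusted p = 0.216) in Dhx9 KO. The gene-level edgeR test of LOC108167467, which counts this peak alone, gave 0.70 ± 0.21 (adjusted p = 0.140) in Uhrf1 KO. In Dhx9 KO it gave −0.32 ± 0.30 (adjusted p = 0.937). The sign in Uhrf1 KO thus differed between the tests. All 6 libraries covered the 5600 bp from chr7:142665801 to 142671400, with 83 CpG (14.8 per kb), a density close to that of the lost H19 run. Within the gene the wild-type bins at chr7:142653801-142657400, which contain the microRNA gene Mir483, were lost in Uhrf1 KO over 3600 bp.

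The other genes of the cluster carried weaker and broader peaks. Ins2, an insulin gene (minus strand, chr7:142678656-142679726), lay under a peak of 284 and 261 reads in wild-type at log2 folds of 0.69 and 0.70. Nothing was called there in Uhrf1 KO replicate 1, and replicate 2 had 139 reads (0.82). In Dhx9 KO the peaks at Ins2 and its flanks summed to 256 and 199 reads.

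Ascl2, a transcription factor of the placental trophoblast expressed from the maternal chromosome, is annotated on the minus strand at chr7:142966822-143008033, and its curated transcript starts at 142969264. The wild-type peak over this start held 1147 and 1167 reads over 24200 and 24800 bp (log2 folds 1.12 and 1.18). Uhrf1 KO replicate 2 kept 6800 bp of it with 335 reads (1.02), and replicate 1 had no peak at the start and 60 reads in a peak 1.66 kb away. Dhx9 KO had 375 and 289 reads over 8600 and 5200 bp (0.73 and 1.14).

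Kcnq1, which encodes a potassium channel subunit (plus strand, chr7:143106742-143427050), is the longest of the 8 at 320 kb. Peaks at the gene and its flanks summed to 12424 and 11872 reads in wild-type cells, 2177 and 6010 in Uhrf1 KO and 11917 and 10691 in Dhx9 KO. The curated start of Kcnq1, at 143107254, lay under a peak in both wild-type libraries and in Dhx9 KO replicate 1, and 7800 bp around it, with 143 CpG, were lost in Uhrf1 KO. The body kept peaks in all 6 libraries at several places, the longest of them 7200 bp each at chr7:143192801-143200000 and chr7:143419801-143427000; the first lies in a region with fewer reads in Uhrf1 KO, given below with the tests of regions.

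Cdkn1c, a cyclin-dependent kinase inhibitor expressed from the maternal chromosome (minus strand, chr7:143458339-143461073), had 552 and 384 reads in its wild-type peaks, 37 and 168 in Uhrf1 KO and 746 and 373 in Dhx9 KO. Its curated start lay under a peak in the wild-type libraries alone, with the nearest Dhx9 KO peak 0.05 kb away and the nearest Uhrf1 KO peaks 2.65 and 2.85 kb away. Phlda2, a maternally expressed gene that restrains placental growth (minus strand, chr7:143501545-143503145), had no peak over its start in any library. Peaks within 5 kb of it held 507 and 559 reads in wild-type, 68 in Uhrf1 KO replicate 2 and none called in replicate 1, and 511 and 194 in Dhx9 KO.

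In all 8 genes the called length within the gene and its 5 kb flanks was shorter in both Uhrf1 KO libraries than in both wild-type libraries. Over all 26086 genes with a peak in any of these libraries the share was 47.3%, and 7.65% were longer, which none of the 8 were. The 8 share peaks and lie side by side, so they are not independent of each other. In Dhx9 KO the length was shorter at 2 of the 8, Ascl2 and Kcnq1 (22.8% over 27390 genes), and longer at 1, Phlda2 (13.9%).

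**Figure D5:**
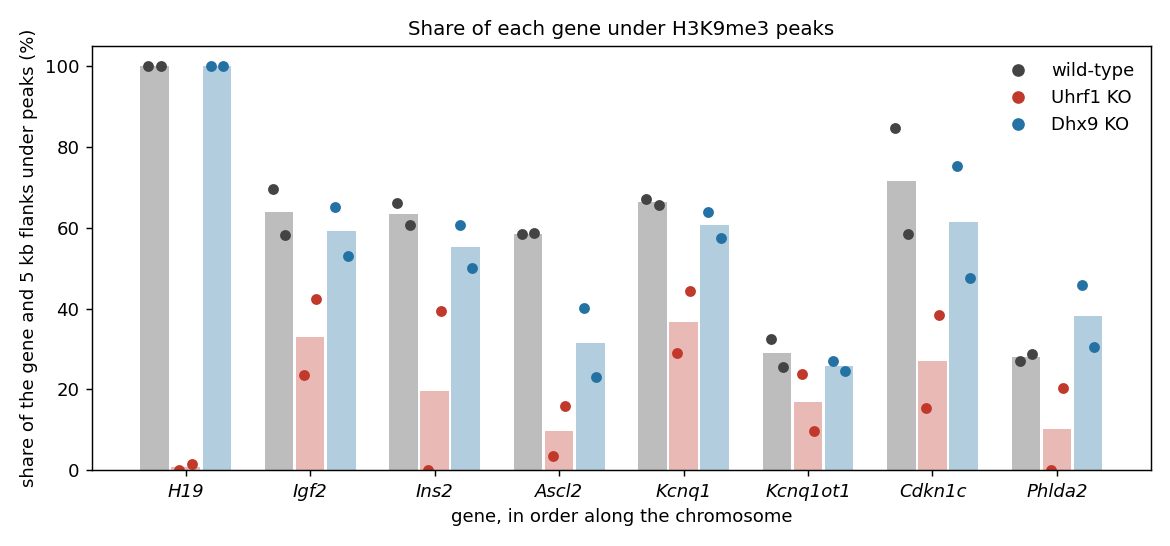
Share of each gene and its 5 kb flanks covered by peaks in each library (points) with the mean of the 2 libraries (bars, from 0). Both Uhrf1 KO points lie below both wild-type points at every gene, from 0 and 1.56% at H19 against 100% to 23.9% and 9.83% at Kcnq1ot1 against 32.5% and 25.6%.

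The reads of each gene were then compared with edgeR's quasi-likelihood test across all genes, with Benjamini-Hochberg adjustment. In Uhrf1 KO against wild-type no gene of 22948 passed an adjusted p of 0.05 (0.0% lower and 0.0% higher; smallest adjusted p 0.0509), although 6901 had an unadjusted p under 0.05 and DESeq2 called 5992 lower and 2399 higher. Of the 8, 3 had an unadjusted p under 0.05, all with negative log2 changes: Ascl2 (−2.24 ± 0.53 SE, adjusted p = 0.0895), Kcnq1 (−0.58 ± 0.18, adjusted p = 0.150) and Cdkn1c (−1.37 ± 0.43, adjusted p = 0.150). DESeq2 called 4 of the 8 lower (26.1% of all genes): H19, Ascl2, Kcnq1 and Cdkn1c. The fitted value of H19 was −4.81 ± 2.11 (adjusted p = 0.264) and that of Phlda2 −3.59 ± 2.06 (adjusted p = 0.376), where Uhrf1 KO replicate 1 has no peak, so that the size depends on the prior count; without that library they were −3.87 and −2.65. Igf2 was at 0.08 ± 0.18 (adjusted p = 0.813). The median log2 change was −1.50 over the 8 and −0.58 over all genes tested. Without the shallow Uhrf1 KO replicate 1, when replicate 2 stands alone and is taken to vary like the wild-type libraries, 5 of the 8 were called lower, where 23.6% of 22515 genes were: H19 (−3.87, adjusted p = 0.0324), Ascl2 (−1.77), Kcnq1 (−0.69), Kcnq1ot1 (−1.09, adjusted p = 0.0487) and Phlda2 (−2.65). Without Uhrf1 KO replicate 2, 6 of the 8 and 52.8% of 21988 genes were called lower.

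In Dhx9 KO against wild-type no gene of 24425 passed (0.0% in either direction), 2289 had an unadjusted p under 0.05, none of them among the 8, and DESeq2 called 5.15% of the genes lower and 5.23% higher but none of the 8. The fitted log2 changes of the 8 ran from −0.60 at Ascl2 (± 0.24, adjusted p = 0.650) and −0.56 at H19 (± 0.26, adjusted p = 0.706) to 0.30 at Cdkn1c (± 0.43, adjusted p = 0.999), with a median of −0.19 against −0.02 over all genes. The knockouts compared with each other gave no call among 21911 genes (0.0%; 3575 with an unadjusted p under 0.05), so a difference between them at the 8 genes was not shown by this test. Their log2 changes, Uhrf1 KO over Dhx9 KO, were −4.23 ± 2.06 at H19 (adjusted p = 0.505), −1.60 ± 0.57 at Ascl2 (adjusted p = 0.314) and 0.24 ± 0.28 at Igf2 (adjusted p = 0.824). DESeq2 called Ascl2 and Cdkn1c lower in Uhrf1 KO, with 15.7% of all genes lower.

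Where a region carried peaks over at least 80% of its length in all 4 libraries compared, its reads were tested with the called length as offset. A lost peak cannot enter this test, so neither the H19 run nor the Kcnq1ot1 start could be tested against Uhrf1 KO. Of 2535 regions, 6.51% were lower and 2.05% higher in Uhrf1 KO than in wild-type. In the cluster 2 regions could be tested and 1 was lower, at chr7:143393401-143396400 inside Kcnq1, where wild-type held 200 and 188 reads and Uhrf1 KO 45 and 103 (log2 change −1.11 ± 0.19, adjusted p = 0.00199). Leaving out either wild-type library ended this call (adjusted p = 0.131 and 0.161), with the log2 change at −1.12. When 50% coverage was enough, 2 of 9 cluster regions were lower (2.7% of 16409), this one and chr7:143177801-143203600, also inside Kcnq1, where wild-type held 1620 and 1493 reads and Uhrf1 KO 371 and 1124 (−0.74 ± 0.14, adjusted p = 0.00767). The other region of the stricter test, between genes at chr7:142756601-142760800, had 164 and 215 against 104 and 259 reads (0.08 ± 0.17, adjusted p = 0.794).

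In Dhx9 KO 0.508% of 4721 regions were lower and 0.0424% higher, and none of the 6 in the cluster was called. These included the H19 domain, chr7:142548201-142616600, with 4465 and 4117 reads in wild-type and 3568 and 3487 in Dhx9 KO (log2 change −0.22 ± 0.12, adjusted p = 0.510, edgeR). Between Uhrf1 KO and Dhx9 KO 1.49% of 2018 regions were lower and 0.149% higher in Uhrf1 KO, with no region of the cluster among those tested.

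The 890 bins without a Uhrf1 KO peak held on average 2.27 CpG per 200 bp and 13.4% soft-masked bases, and the 591 bins with a peak in both Uhrf1 KO libraries 1.90 CpG and 22.2%. Over the genome the corresponding values were 2.32 CpG and 21.0%, and 2.62 CpG and 41.8%. Neighbouring bins are not independent, and the shares are given without a test.

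Of the other 19 genes in the window, 11 had a peak over their start site in at least 1 library. LOC108167467, whose start lies in the Igf2 upstream peak, and 4933417O13Rik, inside Kcnq1, had one in all 6. The starts of Mir675, inside H19, and of Mir483, inside Igf2, had a peak in all wild-type and Dhx9 KO libraries and in neither Uhrf1 KO library. Nctc1, Gm33148 and Th, the tyrosine hydroxylase gene, had none in the shallow Uhrf1 KO replicate 1 alone. Trpm5, a cation channel gene, had one in both wild-type libraries and Dhx9 KO replicate 1, Gm39116 in Dhx9 KO replicate 2 alone, and Slc22a18 and Tspan32 in wild-type replicate 1 alone. No other gene of the window passed the edgeR test across genes. In Uhrf1 KO against wild-type their smallest adjusted p was 0.0509 (edgeR), lower than at any of the 8. Mir675 and Tspan32, without a peak in either Uhrf1 KO library, were among those at this value. DESeq2 called 10 of the 17 other genes tested there, and 5992 lower and 2399 higher among all 22948.

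The genes most like H19 in reads scaled to 1000000 reads in peaks per library, by Euclidean distance on the log2(value + 1) scale over the 6 libraries, were Megf6 (0.59), Nrg2 (0.80), Rxra (1.06), Adgrb1 (1.10) and Shisa9 (1.26). Megf6 had 3082 and 3343 reads in wild-type cells, none called and 269 in Uhrf1 KO, and 3147 and 2041 in Dhx9 KO. Most like Kcnq1ot1 were Gm42194 (0.76), Eml6 (0.84), Gm13251 (0.84), Gm5458 (0.86) and Adck1 (0.93). At other imprinted loci, Meg3, whose control region is methylated on the paternal chromosome, had wild-type values of 3615 and 2241 reads, Uhrf1 KO values of 44 and 78 and Dhx9 KO values of 1812 and 1688. Peg3, methylated on the maternal chromosome, had 1391 and 1172, none called and 256, and 891 and 1227. Rasgrf1, methylated on the paternal chromosome, had 3435 and 3285, 354 and 2115, and 3127 and 2702. Airn, methylated on the maternal chromosome, had 4169 and 3278, 263 and 1399, and 2995 and 3210. Snrpn, likewise maternal, had 469 and 374, 30 and 61, and 265 and 376. None of these loci passed an adjusted p of 0.05 in any comparison (edgeR). The starts of Meg3, Peg3 and Airn lay under a peak in all wild-type and Dhx9 KO libraries and in neither Uhrf1 KO library, and those of Rasgrf1 and Snrpn in no library. The share of all gene starts with either pattern was not counted. These reads are sums over each annotated gene with 5 kb on each side, and the starts are annotated gene starts. The control regions themselves were not looked up, so a start without a peak does not describe them.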

How the data were processed

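The authors aligned H3K9me3 ChIP-seq reads to mm10 (GRCm38) with Bowtie2 2.3.4.3 and called a peak list per library with epic2 in bins of 200 bp; the labels name the caller as SICER 0.0.51, and also Picard 2.8.0, SAMtools and deepTools 3.0.2. The deposited lists hold whole ChIP counts and background counts per peak, a score, p-values and FDR values, and the log2 fold over background given by the caller; a narrow bin grid and a length-dependent call mean that 1 wide peak can appear as several in a shallower library. The other samples of the series were not analysed here. Gene positions came from the deposited annotation; on 2 gene names transcripts lay in several places and these were left out.

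ChIP counts of all peaks touching a gene or 5 kb on each side were summed, so that a peak can count for several genes. A gene without a peak in a library entered the fits with 0 reads there. Genes with at least 20 reads in at least 2 libraries were fitted with edgeR 4.0.16 (TMM, quasi-likelihood test, R 4.3.3), each comparison with its own 4 libraries, and p-values were adjusted over all genes. DESeq2 1.42.0 was an alternative. Regions with peaks over at least 80% of their length in all 4 libraries were fitted likewise with called length as offset. The scripts were tested on simulated data. The genes named are the 8 members, genes of the window with a peak at their start, the 5 genes nearest to H19 and to Kcnq1ot1, and 5 other imprinted loci; members and lists were chosen with earlier results of these data known. Counts per peak cover counting error only, reads outside peaks are unknown, and leaving out a library, other thresholds and other scalings were tried.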

Additional observations from a re-analysis of the deposited data

How the results depend on the processing

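Calls at the level of genes depended on the tool, the libraries and the scaling. In Uhrf1 KO against wild-type the count over all genes, 0 with edgeR, was 8391 with DESeq2, 2814 with library sizes derived from the lists (median log2 change −0.87 in place of −0.58 over all genes), 3226 without flanks and 0 to 14135 when a library was left out; of the 8 genes, 4, 0, 2 and 0 to 6 were called. Without flanks, 18102 genes and 7 of the 8 could be tested, and 2904 of all genes were called lower. Dhx9 KO against wild-type had 2535 calls with DESeq2. Uhrf1 KO against Dhx9 KO had 4387 with DESeq2 (2 of the 8) and 0 to 6248 without a library (0 to 3 of the 8). The cause was not tested.

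At the level of regions, Uhrf1 KO against wild-type had 217 calls, 492 at 50% coverage (2 in the cluster), 30 with all 6 libraries in the fit, where no cluster region could be tested, and 0 to 531 without a library (0 to 1 in the cluster; the 0 without wild-type replicate 1 or 2). Dhx9 KO against wild-type had 26 calls, 14 without the length offset, 77 at 50% coverage, 0 with all 6 libraries and 10 to 736 without a library. Uhrf1 KO against Dhx9 KO had 33 calls, 61 without the offset, 174 at 50% coverage, 0 with all 6 libraries and 0 to 32 without a library.

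The replicate numbers carry no stated link between genotypes. The deviations of same-numbered libraries correlated at −0.02, 0.03 and −0.32 over 12183 genes in the 3 comparisons. The value of −0.32, for Uhrf1 KO against Dhx9 KO, is not near 0. Whether same-numbered libraries were handled together is not given. With the replicate number as a block the 8 genes gave 0 calls in each comparison, and the region counts were 200, 85 and 0; Kcnq1ot1 was at −0.18 in Uhrf1 KO against wild-type. A crossed block for Uhrf1 KO against Dhx9 KO, added after seeing the data, gave 0 genes and 67 regions.

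Some log2 changes turned sign, most of them within 0.30 of 0 as reported. In Uhrf1 KO against wild-type Igf2 was at −0.051 with DESeq2, −0.33 with derived library sizes, −0.069 with reads in proportion to overlap, −0.36 with 20 kb flanks, −0.51 at FDR of at most 1e-10, −0.13 at log2 folds of at least 1, −0.087 with equal numbers of peaks and from −0.080 to 0.13 without a library, the lowest without Uhrf1 KO replicate 2. Kcnq1ot1 was at −0.018, −0.56, −0.87 (20 kb flanks), −0.60, −0.34 and −0.35 under the same settings other than overlap, and from −1.09 to 0.56 without a library, negative without wild-type replicate 2 and, the lowest, without Uhrf1 KO replicate 1. Ins2, at −1.62 as reported, was at 0.41 with 20 kb flanks. In Dhx9 KO against wild-type Igf2 was at 0.15 with equal numbers of peaks, Kcnq1ot1 at 0.040 with 20 kb flanks, Phlda2, reported at −0.58, at 0.62 by overlap, and Cdkn1c at −0.059 by overlap, −0.084 without flanks, −0.21 with 20 kb flanks, −0.23 at log2 folds of at least 1 and from −0.21 to 0.67 without a library, negative without Dhx9 KO replicate 1. In Uhrf1 KO against Dhx9 KO Igf2 was at −0.23 with 20 kb flanks and −0.17 with equal numbers, Ins2, reported at −1.38, at 0.66 with 20 kb flanks, and Kcnq1ot1 at −0.16 with derived sizes, −0.88 with 20 kb flanks, −0.16 at the stricter FDR and from −0.89 to 0.88 without a library, negative without Uhrf1 KO replicate 1. The region between genes at 142756601 ranged from −0.062 to 0.21 without a library, negative without wild-type replicate 1 or Uhrf1 KO replicate 2.

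The share of wild-type bins of the cluster without a Uhrf1 KO peak ranged from 29.0% to 60.6% over the peak thresholds (23.2% to 33.3% over the genome) and from 38.7% to 73.7% without a library (31.5% to 63.9%). For Dhx9 KO it was 16.6% at log2 folds of at least 1 (20.8%) and 9.63% to 18.9% without a library (20.3% to 28.9%).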
